A study of Arabidopsis thaliana with 12 samples.

Results

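Cutin is the polyester that gives the plant cuticle its framework, and 10 *Arabidopsis* genes for its synthesis and export are described here in leaf RNA of Col-0 and *rtnlb16-1*. They were taken by gene ID from the table of normalized counts, which lists 37336 genes, and all 10 were found in it. Of these, 9 had reads in at least 1 of the 12 libraries and *CYP77A4* had none. The plants were grown in soil for 4 weeks under long days (LD, 16 h of light per day at about 80 µmol per m2 per s) or under continuous low light (CLL, about 50 µmol per m2 per s), and RNA came from mature leaves. These intensities are those of the sample labels, and the study's paper gives a lower one for CLL. The 4 groups were Col-0 under LD (libraries 47, 48 and 49), *rtnlb16-1* under LD (50, 51 and 52), Col-0 under CLL (65, 66 and 67) and *rtnlb16-1* under CLL (68, 69 and 70). The study's deposited design description says that leaves of several plants were pooled for each replicate. The *rtnlb16-1* allele is a single T-DNA line in Col-0 (Salk_122275). Its insertion removes the 5′ part of *RTNLB16* needed for isoform 7 and carries a CaMV35S enhancer that raises the other isoforms. The 4 groups carry separate runs of library numbers, and the labels do not say what the numbers stand for. If they follow an order of handling, its effect cannot be told apart from that of light or of genotype. The set was selected on the known roles of its genes, with genotype differences in these libraries already known. The values and calls below, above all those under LD, are therefore a description and not an independent test of the set.

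Cutin is built in epidermal cells. Fatty acids are activated to acyl-CoA, hydroxylated at the chain end by the CYP86A enzymes and within the chain by CYP77A6, and joined to glycerol by the acyltransferases GPAT4, GPAT6 and GPAT8. ABC transporters then carry the monomers to the cell surface, where enzymes such as the cutin synthases link them. In *Arabidopsis*, GPAT4 and GPAT8 are known for leaf and stem cutin, whereas GPAT6, CYP77A6, CYP86A4 and DCR are best known for the dihydroxypalmitate-rich cutin of flowers. CYP86A2 is a fatty acid omega-hydroxylase of leaf cutin. CYP77A4 and CYP77B1 can epoxidise fatty acids, and DCR is an acyltransferase of the BAHD family. ABCG11 is a half-size transporter of the plasma membrane that exports both cutin and wax precursors.

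Several of the genes are close relatives. The coding sequences of *CYP86A2* (chromosome 4, 160643 to 163023 of TAIR10.1) and *CYP86A4* (chromosome 1, 218834 to 221286) are 83.4% identical. *GPAT4* (chromosome 1, 221642 to 224351) and *GPAT8* (chromosome 4, 173953 to 176870) are 83.2% identical, and *GPAT6* (chromosome 2, 15952496 to 15955752) shares 64.8% with *GPAT4*. *CYP86A4* and *GPAT4* lie tail to tail with 355 bases between them, and on chromosome 4 *CYP86A2* and *GPAT8* are separated by 3 coding genes over 10929 bases. The remaining genes are *CYP77A6* (chromosome 3, 3301887 to 3303982), *CYP77B1* (chromosome 1, 3901950 to 3903895), *DCR* (chromosome 5, 8076312 to 8079866) and *ABCG11* (chromosome 1, 6142402 to 6146521).

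The promoters of *CYP86A2* and *CYP86A4* are shown because these paralogues moved in opposite directions in *rtnlb16-1* under LD. Each line gives the 250 bases before the RefSeq gene start, at chr4:160393-160642 and chr1:218584-218833, both on the plus strand. Capitals mark every run of at least 8 bases that occurs anywhere in both windows, whatever its order, so the runs need not be aligned with each other.
CYP86A2: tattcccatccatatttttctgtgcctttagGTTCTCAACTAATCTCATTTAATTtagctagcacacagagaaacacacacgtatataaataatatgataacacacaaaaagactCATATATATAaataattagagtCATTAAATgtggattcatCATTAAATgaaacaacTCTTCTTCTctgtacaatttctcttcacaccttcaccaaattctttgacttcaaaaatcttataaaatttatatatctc
CYP86A4: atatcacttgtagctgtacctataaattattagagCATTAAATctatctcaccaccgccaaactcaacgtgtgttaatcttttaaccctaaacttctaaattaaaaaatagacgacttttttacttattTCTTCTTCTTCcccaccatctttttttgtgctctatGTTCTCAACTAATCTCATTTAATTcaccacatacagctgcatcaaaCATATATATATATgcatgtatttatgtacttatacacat
The aligned promoters were 63.5% identical. The longest shared stretch has 24 bases and begins 219 bases before the start of *CYP86A2* and 85 bases before that of *CYP86A4*. Among 27443 promoters of this length, only these 2 (0.00729%) hold it, and the genome holds 2 copies in all. The promoters of *GPAT4* and *GPAT8* were 66.1% identical, with a longest shared stretch of 9 bases that 0.762% of promoters hold.

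The L1 box (TAAATGTA or TAAATGCA, both strands) was searched in the same windows because it is a binding motif of the epidermal homeodomain factors ATML1 and PDF2. It was found in 2 of the 10 promoters, those of *CYP77B1* and *ABCG11*, in 1 of 14 promoters of other cutin genes, that of *CUS2*, and in 4.49% of all 27443 promoters. Capitals mark the motif in the following lines, each with 20 bases on either side.
CYP77B1, 47 bases before the start: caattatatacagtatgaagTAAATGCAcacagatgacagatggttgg
ABCG11, 82 bases before the start: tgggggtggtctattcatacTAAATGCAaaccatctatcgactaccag
ABCG11, 47 bases before the start: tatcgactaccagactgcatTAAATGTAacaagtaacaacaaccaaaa
CUS2, 74 bases before the start, motif on the other strand: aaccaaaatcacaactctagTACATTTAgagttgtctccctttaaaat
The lines lie at chr1:3901883-3901930, chr1:6142300-6142347, chr1:6142335-6142382 and chr5:12604879-12604926 (minus strand). The G-box (CACGTG) was in none of the 10 windows against 6.49% of all promoters, and the GCC box (GCCGCC, both strands) was in that of *GPAT6* alone against 1.87%. A match describes these letters only.

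The libraries held 25954730 to 44747661 assigned reads, and the 30388 genes with reads in any library were fitted together. *RTNLB16* (AT3G10915) followed the labels, with normalized counts of 769 to 1016 in Col-0 and 7577 to 12665 in *rtnlb16-1* under LD, and of 640.3 to 954 and 1543 to 2252 under CLL. Within groups, the counts of libraries 68 and 69 differed far less than those of any other pair, with a chi-square of 1.78 per degree of freedom against 24.6 to 141 in the other 11 pairs. This was above the limit of 1.5 set for counting a pair as 1 sample, so both were kept. It does not show that libraries 68 and 69 come from separate pools of plants. Calls given here that are lost when they are merged are named. Library 66 of Col-0 under CLL stood apart from libraries 65 and 67 for 5 of the 9 genes with reads. Leaf markers (*RBCS1A*, *RCA*, *CA1* and *CAB2*) were abundant in every library. Of 9 markers of flowers and shoot meristems, *AP1*, *LFY* and *STM* were at 0 in every Col-0 library under LD and had reads in every *rtnlb16-1* library, whose labels name mature leaves. A call required that limma on log2(normalized count + 1) gave a log2 fold change beyond 1 in either direction with an adjusted p (Benjamini-Hochberg) below 0.01. Low genes therefore have understated fold changes.

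Under LD, cutin genes were reordered in *rtnlb16-1* rather than moved as a block. *CYP77A6*, *CYP77B1*, *CYP86A4*, *GPAT6* and *DCR* were higher than in Col-0, *CYP86A2* was lower, and *GPAT4*, *GPAT8* and *ABCG11* were not called. Thus 5 of the 9 genes tested were called higher, where 6% of all genes were, and 1 was called lower, where 5.41% were. At an unadjusted p under 0.05, 6 were higher with *ABCG11* added (17.4% of all genes) and 2 lower with *GPAT8* added (15%). Libraries of the genotypes did not overlap for 8 of the 9 genes, where they did not for 27.2% of all genes. edgeR and DESeq2 on the recovered reads made the same 6 calls. A fit of only the LD groups kept *CYP77B1* and *DCR*, and gave *CYP77A6*, *CYP86A4*, *CYP86A2* and *GPAT6* adjusted p values of 0.0259, 0.0322, 0.0687 and 0.102. The median log2 fold change of the 9 genes was 2.23. These samples are bulk tissue, so more cells of a type and more RNA per cell cannot be told apart.

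**Figure D1:**
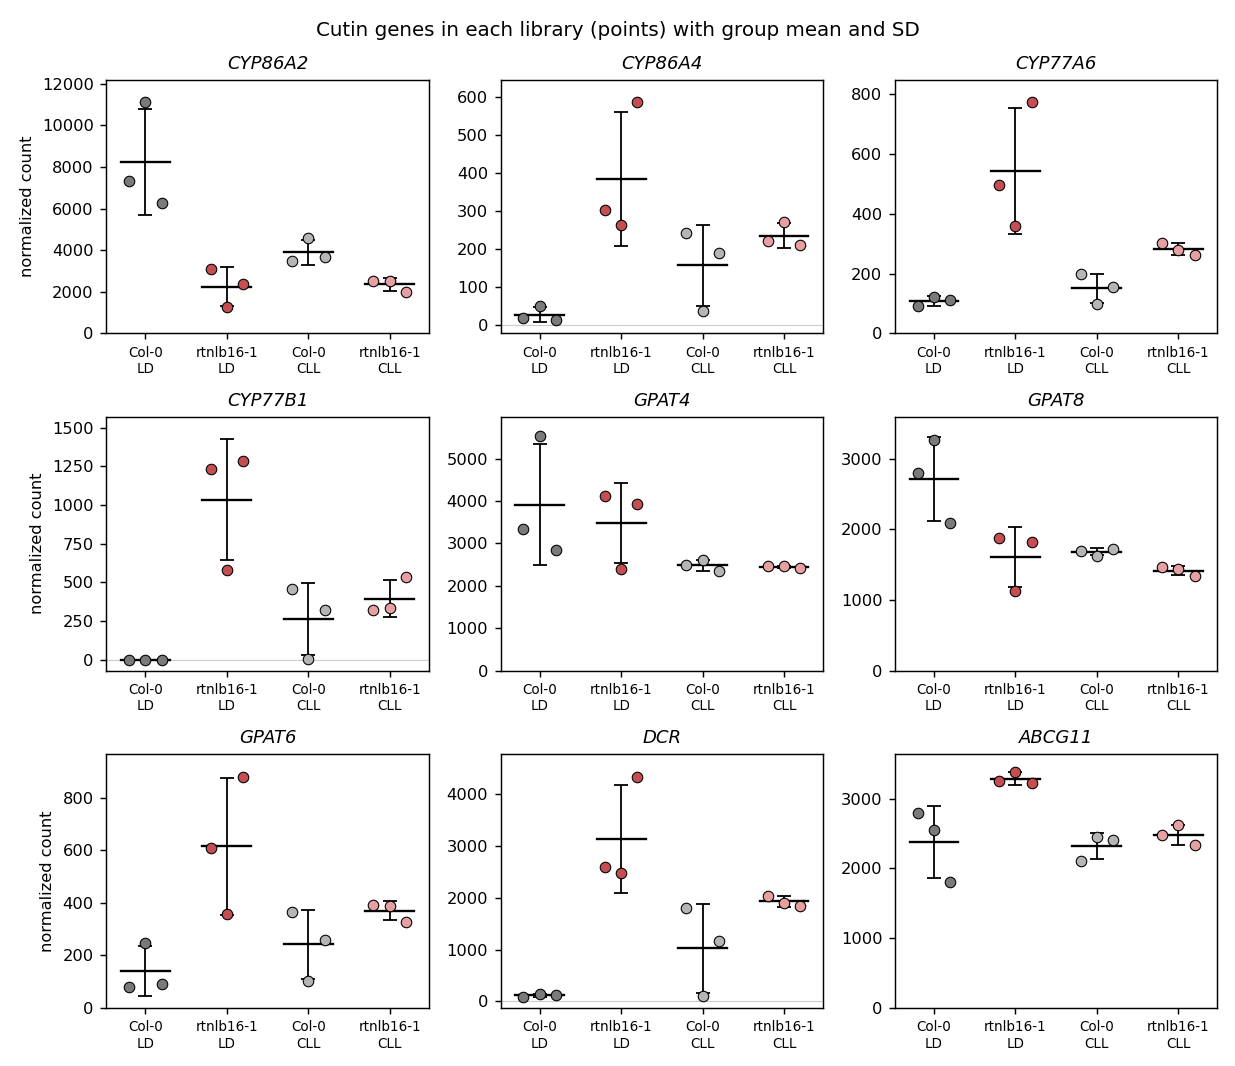
Normalized counts (vertical axes, linear, starting at or below 0) of the 9 cutin genes with reads, by group. Each point is a library, the horizontal bar is the group mean and the error bar is the SD (n = 3). Under LD the *rtnlb16-1* libraries lie above those of Col-0 for *CYP86A4*, *CYP77A6*, *CYP77B1*, *GPAT6* and *DCR* and below them for *CYP86A2*, and in Col-0 under CLL the low point of *CYP77B1* and *DCR* is library 66.

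The omega-hydroxylase *CYP86A2* (AT4G00360) had normalized counts of 7342, 11121 and 6289 in Col-0 under LD and 3115, 1257 and 2365 in *rtnlb16-1*. The groups did not overlap, and the mean was 3.67-fold lower in *rtnlb16-1*. The log2 fold change was -1.93 (SE 0.29, adjusted p = 3.15e-04 from limma). Under CLL the counts were 3471, 4596 and 3671 in Col-0 and 2537, 2529.7 and 2010.3 in *rtnlb16-1*. Here too each *rtnlb16-1* library lay below each Col-0 library, but the difference was not called (log2 fold change -0.73, SE 0.29, adjusted p = 0.215 from limma). Of its exon bases, 41.0% lie under exons of genes on the opposite strand.

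*CYP86A4* (AT1G01600), the paralogue known from flower cutin, went the other way. Its counts were 18.6, 49.3 and 12.3 in Col-0 under LD and 303, 263 and 585 in *rtnlb16-1*. Every *rtnlb16-1* library was above every Col-0 library, and the means differed 14.3-fold (log2 fold change 3.94, SE 0.61, adjusted p = 3.62e-04 from limma). Under CLL the counts were 243, 37.4 and 189 in Col-0 and 222, 272 and 211 in *rtnlb16-1*. The groups overlapped, and Col-0 library 66 was near the level of Col-0 under LD.

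Taken per kilobase of exon not shared with another gene, the 2 paralogues together reached 4821 to 8536 normalized counts in Col-0 under LD and 1076 to 2515 in *rtnlb16-1*. *CYP86A4* made up 0.110% to 0.248% of that sum in Col-0 and 5.19% to 12.2% in *rtnlb16-1*. Under CLL its share was 0.456% to 3.79% in Col-0 and 4.68% to 5.70% in *rtnlb16-1*. In both regimes the shares of the genotypes did not overlap, and *CYP86A2* stayed the major paralogue in all 12 libraries. The shares are given as a description and were not tested.

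*CYP77A6* (AT3G10570), the in-chain hydroxylase, had counts of 91.5, 123 and 112 in Col-0 under LD and 495, 359 and 774 in *rtnlb16-1*. The means differed 4.98-fold with no overlap (log2 fold change 2.24, SE 0.30, adjusted p = 1.09e-04 from limma). Under CLL the counts were 197, 98.6 and 156 in Col-0 and 302, 279 and 262 in *rtnlb16-1*. The groups were again separate, with a 1.86-fold difference that was not called (adjusted p = 0.104 from limma).

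*CYP77B1* (AT1G11600), a fatty acid epoxygenase gene, showed the largest difference of the 9 genes. It had no read in any of the 3 Col-0 libraries under LD and counts of 1235, 582 and 1281 in *rtnlb16-1*. Against a floor of 3 reads per library, the *rtnlb16-1* mean was at least 226-fold higher. The gene was called (adjusted p = 6.01e-05 from limma), and its fitted log2 fold change of 9.93 depends on the pseudocount. Under CLL it was not silent in Col-0, with counts of 459, 2.74 and 321. The *rtnlb16-1* counts of 318, 331 and 531 overlapped these (log2 fold change 2.22, SE 1.24, adjusted p = 0.37 from limma). Without library 66 the log2 fold change was -0.01.

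Of the 10 genes, *CYP77A4* (AT5G04660; chromosome 5, 1335898 to 1337670), known in *Arabidopsis* for a role in embryo patterning, was the one listed at 0 in all 12 libraries. All of its exon lies within an exon of AT5G04670 on the opposite strand. Of 338 coding genes whose exon bases are all covered in this way, 337 (99.7%) were at 0 in all libraries, against 1622 of 19821 coding genes (8.18%) with no overlap. Reads assigned to more than 1 gene were discarded by the authors, so this 0 does not measure expression. The gene was not tested.

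**Figure D2:**
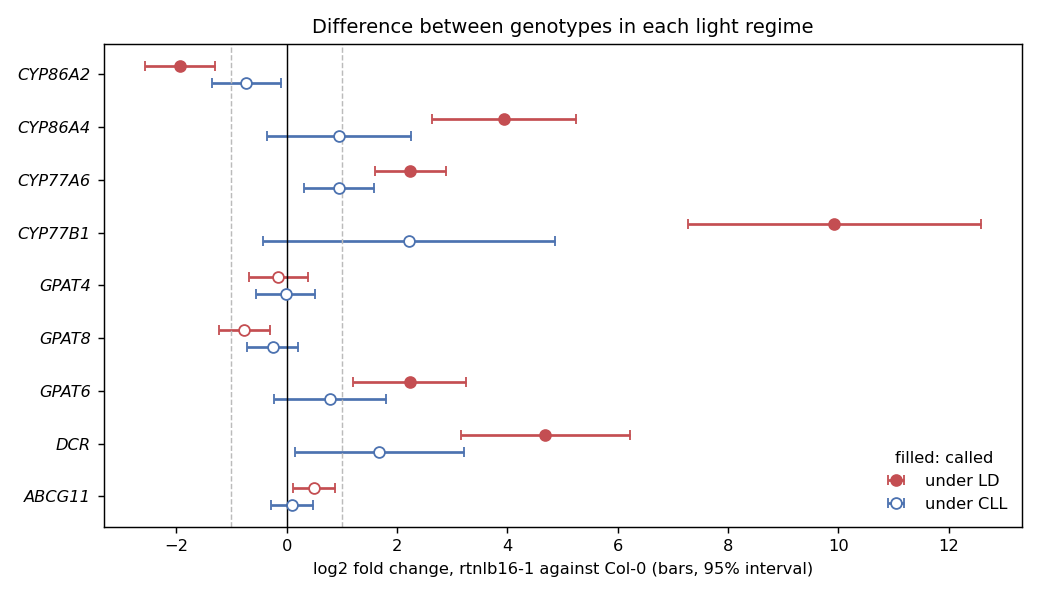
Log2 fold change of *rtnlb16-1* against Col-0 (horizontal axis) for the 9 genes under LD (red) and CLL (blue), from limma. Bars are 95% intervals, filled points were called, and dashed lines mark a change of 1. Under LD 6 points are filled, from -1.93 for *CYP86A2* to 9.93 for *CYP77B1*, and under CLL none is.

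Of the 3 glycerol-3-phosphate acyltransferase genes, only *GPAT6* was called. *GPAT6* (AT2G38110), the flower enzyme, had counts of 80.1, 248 and 91.9 in Col-0 under LD and 609, 357 and 879.8 in *rtnlb16-1*. The groups did not overlap, and the means differed 4.39-fold (log2 fold change 2.23, SE 0.48, adjusted p = 0.00382 from limma). Of the 6 calls, only this one was lost when a library was left out (47, 49, 50, 52 or 69), and it was also lost with libraries 68 and 69 merged (adjusted p = 0.0112 from limma). Under CLL the counts were 365, 102 and 257 in Col-0 and 391, 389 and 328 in *rtnlb16-1*, and the groups overlapped.

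*GPAT4* (AT1G01610) had counts of 3342, 5538 and 2853 in Col-0 under LD and 4112, 2388 and 3927 in *rtnlb16-1*. These overlapped, with a log2 fold change of -0.15 (95% interval -0.68 to 0.38). *GPAT8* (AT4G00400), its partner in leaf cutin, had counts of 2794, 3265 and 2083 in Col-0 and 1881, 1125 and 1818 in *rtnlb16-1*. The latter groups were separate, but the log2 fold change of -0.77 (SE 0.21, adjusted p = 0.0176 from limma) passed neither threshold. Under CLL *GPAT4* ranged from 2349.7 to 2619 over both genotypes. *GPAT8* had counts of 1699, 1627 and 1723 in Col-0 and 1463, 1437 and 1336 in *rtnlb16-1*, a difference of -0.25 on the log2 scale (95% interval -0.71 to 0.20).

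Per kilobase of exon, *GPAT6* made up 1.14% to 2.42% of the 3 acyltransferases in Col-0 under LD and 8.18% to 11.8% in *rtnlb16-1*. The share of *GPAT8* was 35.2% to 44.0% in Col-0 and 27.1% to 28.6% in *rtnlb16-1*. *GPAT4* was the most abundant of the 3 in every library, with 54.9% to 63.8% of the sum. Under CLL *GPAT6* held 2.07% to 7.14% in Col-0 and 7.12% to 8.07% in *rtnlb16-1*, and these ranges touched.

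**Figure D3:**
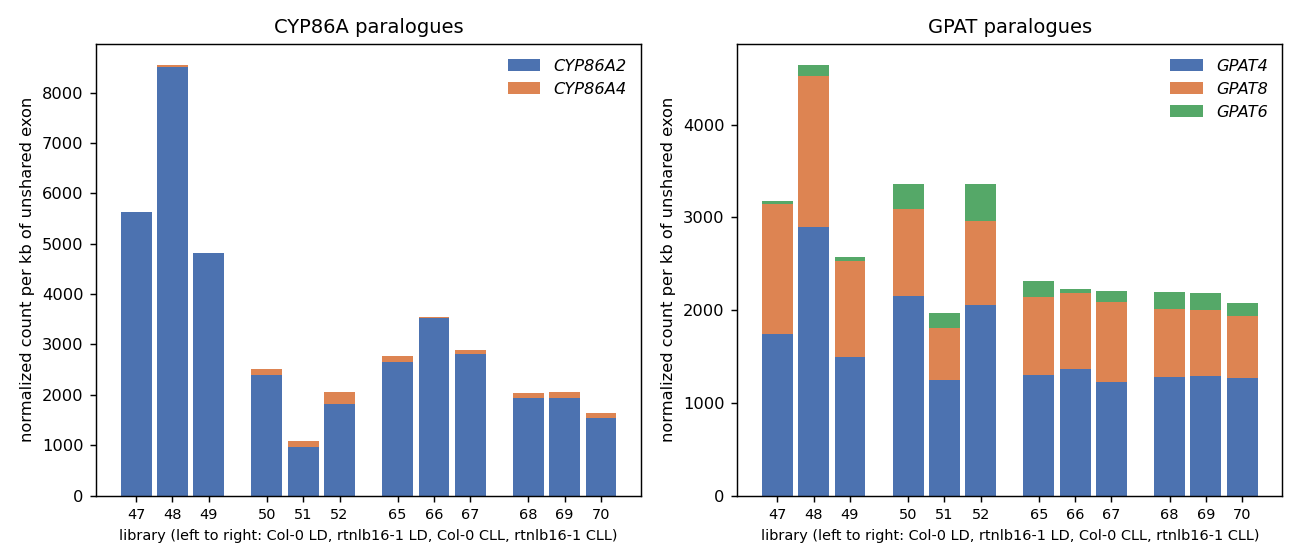
Normalized counts per kilobase of unshared exon (vertical axes) of the CYP86A paralogues (left) and of the GPAT paralogues (right), stacked for each of the 12 libraries (horizontal axes). *CYP86A4* and *GPAT6* form thin caps in Col-0 under LD (libraries 47 to 49) and larger ones in *rtnlb16-1* (libraries 50 to 52), and the CYP86A sum is lower there.

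*DCR* (AT5G23940), required for dihydroxypalmitate in cutin, had counts of 91.5, 137 and 125 in Col-0 under LD and 2593, 2470.4 and 4324 in *rtnlb16-1*. The means differed 26.6-fold with no overlap (log2 fold change 4.69, SE 0.71, adjusted p = 3.11e-04 from limma). Under CLL the counts were 1808, 103 and 1159 in Col-0 and 2036, 1896 and 1842 in *rtnlb16-1*. All *rtnlb16-1* libraries were higher, yet 2 of the 3 Col-0 libraries were at 1159 and 1808 while library 66 was at the LD level of Col-0. The difference was not called (log2 fold change 1.68, SE 0.71, adjusted p = 0.236 from limma).

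*ABCG11* (AT1G17840), the exporter, varied least of the 9 genes. Its counts were 2789, 2551 and 1802 in Col-0 under LD and 3255, 3389 and 3225 in *rtnlb16-1*. The groups did not overlap, but a log2 fold change of 0.49 (SE 0.18, adjusted p = 0.0623 from limma) was not called. Under CLL the counts ran from 2102 to 2626 over both genotypes (log2 fold change 0.10, 95% interval -0.28 to 0.47). Opposite-strand genes cover 32.0% of its exon bases.

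Levels per kilobase of unshared exon place these changes on 1 scale. In Col-0 under LD, *CYP86A2* led with a mean level of 6318 ± 1945 (SD, n = 3), above *GPAT4* at 2041 ± 746. *GPAT8* (1358 ± 298) and *ABCG11* (1091 ± 236) followed, and their libraries overlapped with each other and, for *GPAT8*, with *GPAT4*. *GPAT6* at 63.2 ± 42.3, *DCR* at 60.5 ± 12.1 and *CYP77A6* at 52.0 ± 7.67 formed a low set that did not differ beyond its spread, above *CYP86A4* at 11.5 ± 8.50 and *CYP77B1* at 0. In *rtnlb16-1* under LD the order was another. *GPAT4* (1814 ± 494), *CYP86A2* (1719 ± 715.5), *DCR* (1606 ± 532) and *ABCG11* (1508 ± 40.0) overlapped at the top, so *DCR* stood among the most abundant of the genes. Below them came *GPAT8* (805 ± 210) and *CYP77B1* (531 ± 201), and then *GPAT6* (278 ± 118), *CYP77A6* (259 ± 100.9) and *CYP86A4* (165 ± 75.4), with neighbours overlapping. The values are for exon outside opposite-strand genes and are approximate for *CYP86A2* and *ABCG11*.

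Under CLL no cutin gene was called between the genotypes by limma, where 0.836% of all genes were called higher and 0.711% lower. An unadjusted p under 0.05 was reached by *CYP77A6* and *DCR*, which were higher, and by *CYP86A2*, which was lower. Thus 2 of the 9 genes were higher at this unadjusted level, where 9.32% of all genes were, and 1 was lower, where 8.45% were. edgeR and DESeq2 called none of the 9. Between the genotypes, 4 of them had no overlap, as had 32.1% of all genes. The median log2 fold change of the 9 genes was 0.79 against 0.03 over all genes. The spread of the Col-0 group limits this comparison, because library 66 held 0.702% of the mean of libraries 65 and 67 for *CYP77B1*, 6.95% for *DCR*, 17.3% for *CYP86A4*, 32.9% for *GPAT6* and 55.8% for *CYP77A6*. For *CYP86A2*, *GPAT4*, *GPAT8* and *ABCG11* it held 95.1% to 129%. The genes low in library 66 were thus the 5 that were called higher in *rtnlb16-1* under LD. Without library 66, the log2 fold changes under CLL were -0.01 for *CYP77B1*, 0.12 for *CYP86A4*, 0.26 for *GPAT6*, 0.41 for *DCR* and 0.67 for *CYP77A6*, and again none was called.

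Between light regimes in Col-0, *CYP77B1* was lower under LD than under CLL and was the only gene of the 9 called. In this comparison 3.83% of all genes were called lower and 2.1% higher. Its CLL mean of 261 ± 234 (SD, n = 3) was at least 57.2-fold above the floor of 3 reads per library under LD (adjusted p = 0.00358 from limma). The call was lost without library 47, 48, 49, 65, 67 or 69 and with libraries 68 and 69 merged (adjusted p = 0.0123). Without library 66, *CYP77B1*, *CYP86A4* and *DCR* were called lower under LD, with log2 fold changes of -8.59, -3.19 and -3.63. Library 66 was low for these 3 genes, so its removal favours these calls. edgeR and DESeq2 on all libraries called these 3 genes lower as well, and *CYP86A2* higher. Over all 30388 genes, edgeR called 1825 lower and 980 higher, and DESeq2 1605 and 1009. In the limma fit *CYP86A2* had a 2.11-fold higher mean under LD with no overlap, at a log2 fold change of 1.04 (SE 0.29, adjusted p = 0.03). *GPAT4* and *GPAT8* had means 1.57-fold and 1.61-fold higher under LD, and neither was called. At an unadjusted p under 0.05, 3 of the 9 genes were higher under LD (*CYP86A2*, *GPAT4* and *GPAT8*), where 10.8% of all genes were, and 3 were lower (*CYP77B1*, *CYP86A4* and *DCR*), where 15.2% were. Between the regimes, 4 of the 9 had no overlap, as had 25% of all genes.

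Between light regimes in *rtnlb16-1*, limma called none of the 9 genes, where 1.93% of all genes were called higher under LD and 3.28% lower. At an unadjusted p under 0.05, *CYP77A6* and *ABCG11* were higher under LD, which is 2 of 9 genes where 12.6% of all genes were higher, and none was lower, where 16.8% were. DESeq2 called none, and edgeR called *CYP77B1* higher (adjusted p = 0.00941). *DCR* and *CYP77B1* had means of 3129 ± 1037 and 1033 ± 391 under LD and of 1924 ± 100 and 393 ± 120 under CLL (SD, n = 3), and their libraries did not overlap. This was so for 4 of the 9 genes and for 33.7% of all genes.

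The difference between the genotype effects under LD and under CLL was tested as an interaction. No gene of the 9 was called by limma, where 0.395% of all genes were called higher and 0.533% lower. *CYP77B1* came closest, with an interaction of 7.71 on the log2 scale (SE 1.75, adjusted p = 0.0287). At an unadjusted p under 0.05 the interaction was above 0 for 4 genes and below 0 for 1 (*CYP86A2*, -1.20, SE 0.42), where 8.15% and 7.7% of all genes were. edgeR and DESeq2 called *CYP77B1*, *CYP86A4* and *DCR* above 0, where they called 601 and 525 of all 30388 genes. limma without library 66 called the same 3 genes, with interactions of 9.93, 3.81 and 4.28. In that fit 237 of 30158 genes were called above 0. The 3 cutin genes were low in library 66, so leaving it out favours such calls, which are no independent support. The other 6 genes were not called by any of these tools or without library 66.

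Of 9 markers of flowers and shoot meristems, 6 were also called higher in *rtnlb16-1* under LD (*AP1*, *LFY*, *AP3*, *PI*, *SEP3* and *STM*), where 6% of all genes were, and none was called lower, where 5.41% were. *AG*, which specifies stamens and carpels, was not called, at 64.4, 63.3 and 87.8 in Col-0 and 24.5, 68.6 and 57.1 in *rtnlb16-1*, and neither were *WUS* and *CLV3*, with means of 0.914 and 2.71 in Col-0 and 4.58 and 2.98 in *rtnlb16-1*. Under CLL, *STM*, *AP1*, *LFY* and the epidermal gene *PDF1* were lower in library 66 than in libraries 65 and 67, as the 5 cutin genes were. The floral organ genes *SEP3*, *AP3* and *PI* were low in all 3 Col-0 libraries. *STM*, which keeps shoot meristem cells undifferentiated, was at 0 in the 3 Col-0 libraries under LD and at 351, 169.7 and 426 in *rtnlb16-1*. Under CLL it was at 266, 2.74 and 113 in Col-0 and at 183, 184 and 205 in *rtnlb16-1*. Library 66 thus had little *STM*, as it had little *CYP77B1* and *DCR*. *PDF1*, a gene of the protoderm, was at 60.1, 127 and 38.4 in Col-0 under LD, at 5859 to 14038 in *rtnlb16-1*, and at 6067, 399.9 and 2754 in Col-0 under CLL. *SEP3*, a floral organ identity gene, was at 4.11 to 11.4 in Col-0 under LD and 105 to 211 in *rtnlb16-1*. Under CLL it was at 3.46, 3.65 and 0.924 in Col-0 libraries 65, 66 and 67 and at 36.4 to 105 in *rtnlb16-1*. *AP3* and *PI*, which specify petals and stamens, were likewise at 0 to 3.70 and 3.65 to 11.1 in Col-0 under CLL and at 34.4 to 82.5 and 35.8 to 78.9 in *rtnlb16-1*. In libraries 65 and 67 these 3 genes were below their *rtnlb16-1* levels. *AP1* was at 13.85, 0 and 11.09 in libraries 65, 66 and 67 and at 45.87 to 104.32 in *rtnlb16-1* under CLL. *LFY* was at 4.04, 0 and 12.01 in the same Col-0 libraries and at 12.62 to 22.94 in *rtnlb16-1*. Both thus had no read in library 66, and *LFY* in library 67 was close to its lowest *rtnlb16-1* value. *DCR* and *CYP77B1* were at 1808 and 459 in library 65 and at 1159 and 321 in library 67. Summed over the 9 flower and meristem markers, normalized counts ran from 80.9 to 97.4 in Col-0 under LD, 639 to 1086 in *rtnlb16-1* under LD, 30.1 to 311 in Col-0 under CLL and 421 to 599 in *rtnlb16-1* under CLL. In library 65 *STM* alone made up 266 of the sum of 311. Of 6 cell division markers, all 6 were called higher under LD by limma (6% of all genes), edgeR and DESeq2 and 3 with libraries 68 and 69 merged (*KNOLLE*, *CDKB1-1* and *CDC20-2* were lost). Left out singly, library 69 ended the same 3 calls and library 52 these and that of *CYCB1-4*. The groups did not overlap for any of the 6, where they did not for 27.2% of all genes. Under LD the sum of the 6 was 269 to 306 in Col-0 and 741 to 1149 in *rtnlb16-1*. Under CLL the 6 were also low in library 66, at 17.2% (*CYCB1-1*) to 53.1% (*CYCB1-4*) of the mean of libraries 65 and 67. The part of these tissues in the values of the cutin genes was not tested.

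Most general epidermal genes were not called. Of 9 epidermis markers, 2 were called higher under LD (6% of all genes), *PDF1* and the trichome gene *GL2*, and none lower. edgeR and DESeq2 called 3 higher. The sum of the list overlapped between the genotypes at 56712 to 104520 in Col-0 and 54831 to 129240 in *rtnlb16-1*. *LTP1* alone had counts of 40323 to 83485 and 32361 to 95763 in these groups. The mean of log2(normalized count + 1) over the 9 markers did not overlap, at 8.77 to 9.32 in Col-0 and 10.07 to 10.59 in *rtnlb16-1*. *ATML1* and *PDF2*, which specify epidermal identity, had log2 fold changes of 0.22 and 0.09 and were not called. In library 66 *GL2* and *GL1*, like *PDF1*, were low, at 36.0% and 0% of the mean of libraries 65 and 67. The other markers of the list ran from 95.2% (*FAMA*) to 116% (*MYB60*). Of the 4 leaf markers none was called by limma, 2 were lower at an unadjusted p under 0.05 (where 15% of all genes were) and with edgeR and DESeq2, and their sum was 1768670 to 3092888 in Col-0 and 949118 to 1516522 in *rtnlb16-1*.

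**Figure D4:**
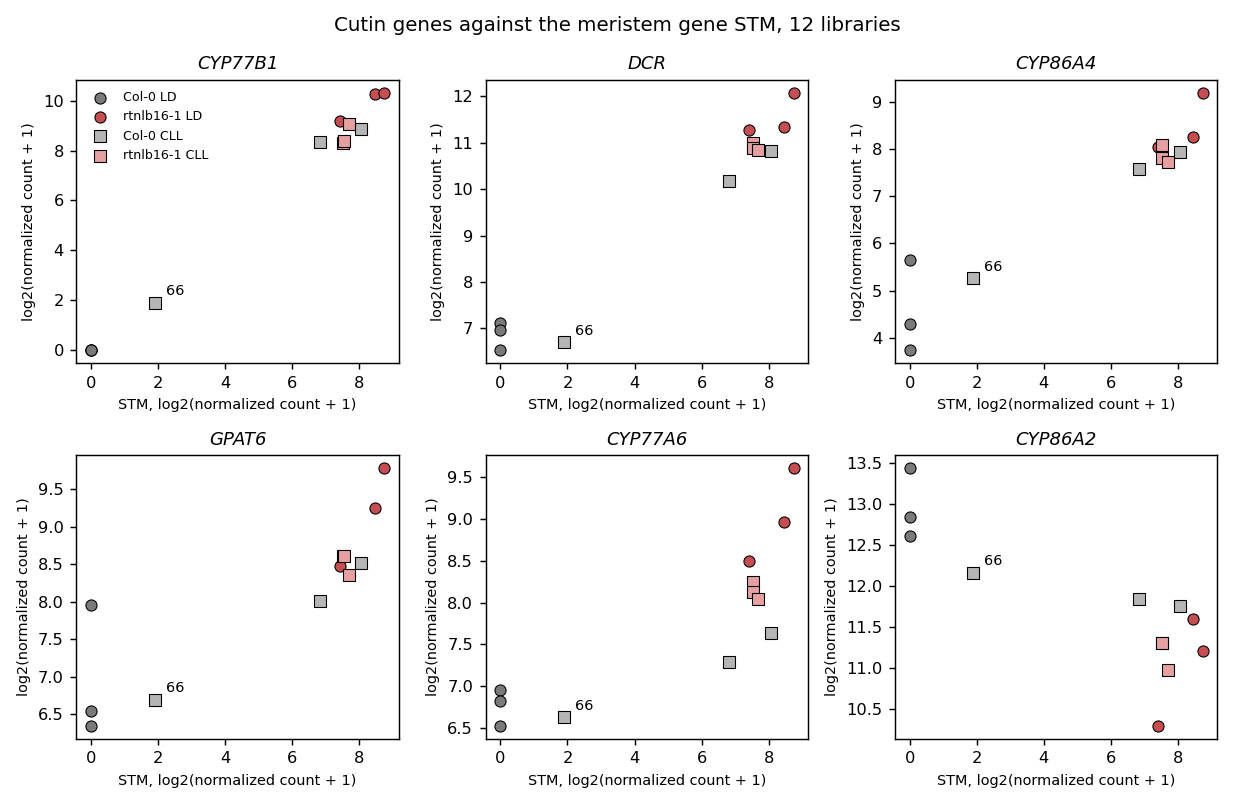
Level of 6 cutin genes (vertical axes) against that of *STM* (horizontal axes) in the 12 libraries, both as log2(normalized count + 1). Circles are LD, squares are CLL, grey is Col-0 and red is *rtnlb16-1*. Col-0 library 66, marked by its number, lies beside the Col-0 LD libraries for *CYP77B1*, *DCR*, *CYP86A4*, *GPAT6* and *CYP77A6*, away from the other Col-0 CLL libraries.

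Genes with like profiles were sought among 16654 other genes with a mean normalized count of at least 50, by Pearson's r of log2 values over the 12 libraries. The libraries fall into groups, so r is given as a description with no p. For the 5 genes called higher under LD, Col-0 under LD and library 66 also held the lowest values. For *GPAT6* these were hardly apart from the rest, with 248 in library 48 and 257 in library 67. *CYP77B1* was most like *STM* (r = 0.997), and *DCR* was most like *CYP706A3* (r = 0.992), a cytochrome P450 of flower terpene metabolism, which was at 0 in Col-0 under LD and at 180.2 to 470.3 in *rtnlb16-1*. *CYP86A4* was most like *IQD25* (r = 0.987), *GPAT6* most like *NSP1* (r = 0.980) and *CYP77A6* most like *SWEET10* (r = 0.967), a sugar transporter gene. *CYP86A2* was most like *PRA1.B6* (r = 0.990), *GPAT8* most like *RKL1* (r = 0.984), *GPAT4* most like *BG_PPAP* (r = 0.959) and *ABCG11* most like AT4G30100 (r = 0.926). The mean standardised profile of the 9 genes was most like AT1G10850 (r = 0.953), *TUB3* (0.946), *PRP2* (0.943), AT3G03680 (0.937) and *PYL4* (0.937). This mean is no shared profile, because r of the genes with it ran from -0.373 for *CYP86A2* and -0.0598 for *GPAT8* to 0.914 for *GPAT6*.

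Among 14 other genes of the cutin pathway, 5 were called higher in *rtnlb16-1* under LD (6% of all genes) and none lower (5.41%), and edgeR and DESeq2 also called *LTPG2* lower. The 5 were the acyl-CoA synthetase *LACS1*, the hydroxylase *CYP86A7*, the GDSL lipase *LTL1*, the cutin synthase *CUS2* and the transporter *ABCG13*, which is known from petal cuticle. *CUS2* had counts of 1.43, 3.52 and 0 in Col-0 and 1319, 1295 and 2787 in *rtnlb16-1* (log2 fold change 9.56, adjusted p = 8.92e-06 from limma). *ABCG13* had counts of 4.29, 0 and 1.37 in Col-0 and 166, 230.3 and 281 in *rtnlb16-1* (log2 fold change 6.58, adjusted p = 8.55e-06 from limma). Both were low in library 66, at 3.66% and 17.8% of the mean of libraries 65 and 67. *LACS1*, *LTL1* and *CYP86A7* had log2 fold changes of 2.33, 2.35 and 2.87. The 9 genes not called by limma had log2 fold changes from -1.31 for *LTPG2* (adjusted p = 0.0218) to 0.78 for *HTH* (adjusted p = 0.023). No overlap between the groups was seen for 4 of these 9, which were *LTPG2*, *HTH*, *BDG3* (0.76) and *ABCG32* (0.53), and for 27.2% of all genes. *ABCG12*, *BDG1*, *LTPG1*, *CYP86A8* and *LACS2* had values of -0.37, -0.25, -0.16, 0.05 and 0.24 with overlapping groups.

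Under CLL none of the 14 other cutin genes was called between the genotypes by limma or DESeq2, and edgeR called 2 higher. An unadjusted p under 0.05 was reached by 4 of the 14, all higher, where 9.32% of all genes were. Between light regimes in Col-0, *LACS1*, *LTL1*, *CUS2* and *ABCG13* were called lower under LD (log2 fold changes of -2.23, -1.66, -5.98 and -4.79), and the lipid transfer protein gene *LTPG2* was called higher (1.80), where 3.83% and 2.1% of all genes were called lower and higher. edgeR and DESeq2 also called *CYP86A7* lower. The calls of *LTL1* and *LTPG2* were lost with libraries 68 and 69 merged, and also without library 48, 49, 65, 67, 68, 69 or 70, without 47 or 50 for *LTL1* and without 66 for *LTPG2*. *LACS1* was the 1 gene of the list with an interaction called by limma (1.71, SE 0.31, adjusted p = 0.00808), and this call was lost with libraries 68 and 69 merged and without any 1 library other than 50 or 66. The share of all genes called above 0 was 0.395%. edgeR and DESeq2 called 5 genes of the list above 0, which were *LACS1*, *CYP86A7*, *LTL1*, *CUS2* and *ABCG13*. Of all 30388 genes they called 601 and 525 above 0. limma without library 66 called 3 (*LACS1*, *CUS2* and *ABCG13*, with interactions of 1.83, 8.56 and 5.65). In that fit 237 of 30158 genes were called above 0. *CUS2* and *ABCG13* were low in library 66, so its removal favours their calls.

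Of 11 transcription factors of the cuticle, none was called lower under LD and 1 was called higher (6% of all genes), the AP2-domain factor *SHN1*, an activator of wax and cutin genes. It was at 0 in all 3 Col-0 libraries and at 28.4, 15.8 and 53.6 in *rtnlb16-1* (adjusted p = 2.19e-04 from limma). Under CLL its counts were 0.577, 0 and 7.39 in Col-0 and 15.8, 16.8 and 6.75 in *rtnlb16-1*, which overlapped. *MYB106*, an activator of cutin genes, had counts of 4.29, 14.1 and 0 in Col-0 under LD and 9.03, 17.6 and 29.8 in *rtnlb16-1*, which overlapped (log2 fold change 2.06, 95% interval 0.31 to 3.80, adjusted p = 0.0907 from limma). Exons of AT3G01142 on the opposite strand cover 76% of its exon bases, and reads of more than 1 gene were left out, so its counts may be understated. *SHN2* and *SHN3* were as low in count, with log2 fold changes of 1.15 (95% interval -0.04 to 2.34) and 1.03 (-0.73 to 2.80), and neither was called. At an unadjusted p under 0.05, 3 of the 11 were higher (*SHN1*, *MYB106* and *HDG1*), where 17.4% of all genes were, and none was lower, where 15% were. *MYB16*, *MYB106* and *HDG1* were not called in any of the comparisons.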

How the data were processed

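RNA-seq of leaf RNA from 12 libraries, 3 per group, was used, all run on a single lane. The signal values deposited by the authors are gene counts made with STAR and HTSeq on TAIR10 (Araport11) and scaled within each library by its DESeq2 size factor, with reads of more than 1 gene left out. Whether strand was used is not given in the sources used here. Whole reads were recovered for 100% of values above 0 (relative tolerance 1e-06). Values were fitted as log2(value + 1) by limma 3.58.1 (R 4.3.3), using 4 group means and a trend in the prior variance, with p adjusted over 30388 genes. Replicates are described as biological, and p-values measure the spread between these pools only. edgeR 4.0.16 and DESeq2 1.42.0 were run on the recovered reads as alternatives, beside pseudocounts of 0.5 and 5, a minimum value of 10 in 3 or more libraries, scaling by TMM or upper quartiles, fits of 2 groups, other thresholds, each library left out, and libraries 68 and 69 merged. The fits were also run on simulated counts with the same dispersion for every gene, where only genes well above 0 in Col-0 under LD were changed. That run does not bear on genes at or near 0 in a group, such as *CYP77B1*, or on groups of unequal spread. Names, coordinates and sequences came from the RefSeq annotation of TAIR10.1, which matched 37051 of 37336 gene IDs. Tables were made with Python 3.11.15, pandas 2.3.3 and biopython 1.88.

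The 10 genes and the 8 other lists were chosen with earlier results of these data known, so the calls are no independent evidence for them. Named genes are the 10, *RTNLB16*, every other cutin gene called, up to 4 called regulator, suberin and wax genes per comparison by adjusted p, and the genes of most like profile. Marker genes and a few uncalled genes were named after their values were seen.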

Additional observations from a re-analysis of the deposited data

Results flagged for a closer look

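The effect of *rtnlb16-1* against Col-0 differed between LD and CLL, by the interaction test of limma, for 4 of the named genes, none of them among the 10 cutin genes. The interaction was 1.71 on the log2 scale for *LACS1* (adjusted p = 0.00808), 2.04 for the wax gene *CER1* (adjusted p = 0.00222), 5.97 for the protoderm gene *PDF1* (adjusted p = 0.00675) and 2.01 for *RTNLB16* itself (adjusted p = 0.00491). All 4 effects were larger under LD. All 4 calls were lost with libraries 68 and 69 merged into 1 sample. edgeR and DESeq2 on the recovered reads called all 4. *PDF1* in library 66 was at 9.07% of the mean of libraries 65 and 67. With 3 libraries per group no search for outlying samples was made, and library 66 was singled out because listed genes were low in it.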

How the results depend on the processing

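Of 1026 log2 fold changes of the 9 genes under all alternatives, 971 kept their sign and call, 19 lost a call, 23 gained one and 13 turned sign. The number of genes called under LD stayed between 5 and 6 without any 1 library and was 2 in a fit of only the 2 groups (*CYP77B1* and *DCR*), which has fewer samples. That fit called 393 of all genes higher and 180 lower, against 1822 and 1643 in the main fit. Between light regimes in Col-0 the 1 call became 4 at an adjusted p under 0.05, with DESeq2 and with edgeR, and 0 with libraries 68 and 69 merged, with a pseudocount of 5 and in a fit of only the 2 groups. Over all genes, 639 higher and 1165 lower became 980 and 2063, 1009 and 1605, and 980 and 1825 in the first 3 settings. In the last 3 they became 431 and 831, 588 and 1003, and 7 and 35. Without any 1 library the number of the 9 genes called ran from 0 to 3. In *rtnlb16-1* edgeR called 1. For the interaction, DESeq2 and edgeR called 3 and an adjusted p under 0.05 gave 1, with a range of 0 to 3 without any 1 library, the 3 being without library 66. Over all genes, 120 calls above 0 and 162 below became 525 and 545 with DESeq2 and 601 and 606 with edgeR. At an adjusted p under 0.05 they became 451 and 478. Under CLL the count was 0 throughout. The cause of these moves was not tested. The turned signs belong to 4 genes, each in a comparison in which that gene was not called. Without any 1 library, *GPAT4* ran from -0.35 to 0.13 under LD, from -0.059 to 0.019 under CLL and from -0.33 to 0.15 in the interaction, and upper-quartile scaling gave 0.0049 under CLL. *ABCG11* between regimes in Col-0 ran from -0.11 to 0.20, and was -0.0034 with edgeR and -0.025 with TMM scaling. *CYP86A2* between regimes in *rtnlb16-1* ran from -0.44 to 0.21. *CYP77B1* under CLL ran from -0.0067 without library 66 to 3.47 without library 65. No paired analysis was possible because the groups share no replicate numbers. Depth limits *CYP77B1* in Col-0 under LD, where no read was seen.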

Other observations

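Suberin is a related polyester made by sister enzymes in roots, seed coats and wounded tissue. Of 12 suberin genes 11 had reads, and 6 were called higher in *rtnlb16-1* under LD by limma (6% of all genes) and none lower (5.41%). edgeR and DESeq2 also called *ASFT* higher. *CYP86A1*, the fatty acid hydroxylase of root suberin, was at 0 in every Col-0 library under LD and at 120.0, 73.8 and 113 in *rtnlb16-1*. *FAR4*, *FAR5* and *GPAT5* were also at 0 in Col-0 under LD, and reached 11.6 to 16.7, 16.8 to 37.8 and 7.91 to 20.6 in *rtnlb16-1*. Under CLL none of the 11 was called by limma, edgeR or DESeq2, and 4, all higher, had an unadjusted p under 0.05, where 9.32% of all genes did. Between light regimes in Col-0, *FAR5* was called lower under LD (log2 fold change -3.18, adjusted p = 0.00549 from limma), a call lost without library 47, 48, 49, 65, 67 or 68, where 3.83% of all genes were called lower. edgeR and DESeq2 also called *CYP86A1* lower. In *rtnlb16-1*, none was called between regimes by limma or DESeq2, 3 were higher under LD at an unadjusted p under 0.05 (12.6% of all genes), and edgeR called 1 higher.

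Of 8 wax genes, 4 were called higher in *rtnlb16-1* under LD (6% of all genes), which were *CER1*, *CER3*, *WSD1* and *CYP96A15*, the last not without library 48. limma called none lower, but *CER4*, which makes primary alcohols, had counts of 784, 487 and 512 in Col-0 and 87.7, 131 and 311 in *rtnlb16-1*. These did not overlap, and *CER4* was called lower by edgeR and DESeq2 (log2 fold change -1.92, adjusted p = 0.0148 from limma). *KCS1* had no overlap either and fell short of the fold limit (log2 fold change -0.94, adjusted p = 0.0087 from limma). *CER1*, needed for alkane synthesis, had normalized counts of 777, 929 and 761 in Col-0 and 5999, 6769 and 10851 in *rtnlb16-1* (log2 fold change 3.21, adjusted p = 2.06e-07 from limma). *CER1* and *WSD1* were also called higher under CLL (1.17 and 1.51; 0.836% of all genes), and both calls were lost with libraries 68 and 69 merged and without library 65, 66, 67, 68, 69 or 70 (*WSD1* also without 47, 48, 49 or 52). Unlike *DCR*, *CER1* was not low in library 66, at 119% of the mean of libraries 65 and 67. Between light regimes in Col-0, *CER1*, *WSD1* and *CYP96A15* were called lower under LD (3.83% of all genes) and *CER4* higher (2.1%). In *rtnlb16-1*, limma called *CER3* higher under LD (1.02; 1.93% of all genes), as DESeq2 did, but edgeR did not (0.98). *WSD1* was lower under LD in *rtnlb16-1* by edgeR and DESeq2, and was not called by limma (log2 fold change -1.26, adjusted p = 0.0107). The calls of *CER4* and *CER3* between regimes were lost with libraries 68 and 69 merged. Left out singly, libraries 47, 48, 49, 65, 66, 67, 68 and 69 each ended the call of *CER4*, 51, 68, 69 and 70 that of *CER3*, 67 that of *WSD1*, and 48, 65 and 67 that of *CYP96A15*.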
